A study of Arabidopsis thaliana with 12 samples.

Results

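The genes described here are transcription factors that carry a family name and number as their symbol, such as bZIP44 or WRKY6, in imbibed seeds of Arabidopsis thaliana. A symbol of the supplied probe set annotation had to open with a family name of the MYB, WRKY, bZIP, bHLH, NAC, HB, HSF, ERF, TCP, ARF, GATA, SPL or NF-Y factors followed by a number, and its probe set had to match 1 gene. This rule took 28 of the 13356 genes with a probe set: 14 bZIP genes, 6 WRKY genes, 5 bHLH genes, and MYBC1, NAC014 and TCP15. No HB, HSF, ERF, ARF, GATA, SPL or NF-Y gene was among them. RefSeq holds 521 Arabidopsis genes with such a symbol, and the other 493 were not analysed here. All 28 symbols are those of transcription factors, so no gene had to be set apart as another protein with a like name, and each gene had a single probe set.

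Seeds were of the Col-0 wild type or of pil5 (Salk_072677), an insertion line of the bHLH factor PIL5, which interacts with phytochrome. They received far-red light (3.2 umol per square metre and second, 5 min), or far-red light and then red light (13 umol per square metre and second, 5 min), and stayed in darkness for 12 h on aqueous medium. Seeds whose last light was far-red are called dark and those given the red pulse are called red, which makes 4 groups: Col-0 dark and red, and pil5 dark and red. Each group held 3 biological replicates, each on its own array, so 12 arrays were compared. Total RNA came from whole seeds, so fewer cells of a type and less RNA per cell cannot be told apart. The mutant was represented by 1 insertion line, and 0 probe sets were tied to PIL5, so its own transcript could not be checked. Of the seed and endosperm markers listed for a check of the tissue, 0 of 12 and 0 of 3 could be matched to a probe set of 1 gene in the annotation. Of 5 photosynthesis markers 1 could, RCA. Its mean log2 signal was 7.73 in Col-0 dark, 7.26 in Col-0 red, 7.10 in pil5 dark and 6.98 in pil5 red.

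In Arabidopsis seeds, phytochrome that has been turned to its active form by red light permits germination, and far-red light turns it back. PIL5 is known to repress germination in darkness and is removed when phytochrome is active. Germination is accompanied by the shut-down of seed maturation genes and the start of reserve use, growth, and mineral and protein handling in the embryo. Members of the families studied here act in each of these: bZIP factors of group S in maturation and reserve use, membrane-bound bZIP factors in the response of the endoplasmic reticulum (ER) to unfolded proteins, bHLH factors in iron supply, and WRKY factors in defence, senescence and phosphate supply.

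Values are log2 signals, so a difference of 1 is a 2-fold change. A change is called where limma's two-sided test, fitted to all 12 arrays and adjusted by Benjamini-Hochberg over all 22746 probe sets, gave an adjusted p below 0.05. That fit is called the main fit below. Arrays with the same replicate number deviated together, so the fit was repeated with that number as an additive term, called the block below, and its adjusted p is given where it changes a call. Array medians ranged from 6.08 to 6.28. The pil5 red array of number 3 stood apart: between pil5 red and pil5 dark 958 probe sets differed 2-fold or more in number 3, against 1 in number 1 and 0 in number 2, and its bioC spike-in control read 7.29 against 8.63 to 8.96 on the other 11 arrays. Calls that use the pil5 red group, made with or without the block, are also given without this array.

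Red light in Col-0 raised 3 of the 28 genes, bZIP44, bHLH115 and bHLH34, and lowered 2, bHLH121 and BZIP53. The 5 called genes were 17.9% of the members, against 15.1% of all probe sets called in this comparison (7.81% higher and 7.33% lower), so the members were called about as often as the array as a whole. In pil5 in the dark, bZIP44 rose and bZIP19 fell, 2 of 28 against 12.1% of all probe sets (6.08% higher and 6.01% lower). Red light in pil5 gave 0 called members by limma (0 also at an unadjusted p below 0.05), against 0% of all probe sets (1.17% unadjusted). When pil5 was set against Col-0 after red, limma called 0 members (5 unadjusted), against 0.193% of all probe sets (12% unadjusted). The bHLH family held 3 of the 5 genes called for red in Col-0, the bZIP family 2 of its 14, and the WRKY family 0 of 6.

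**Figure D1:**
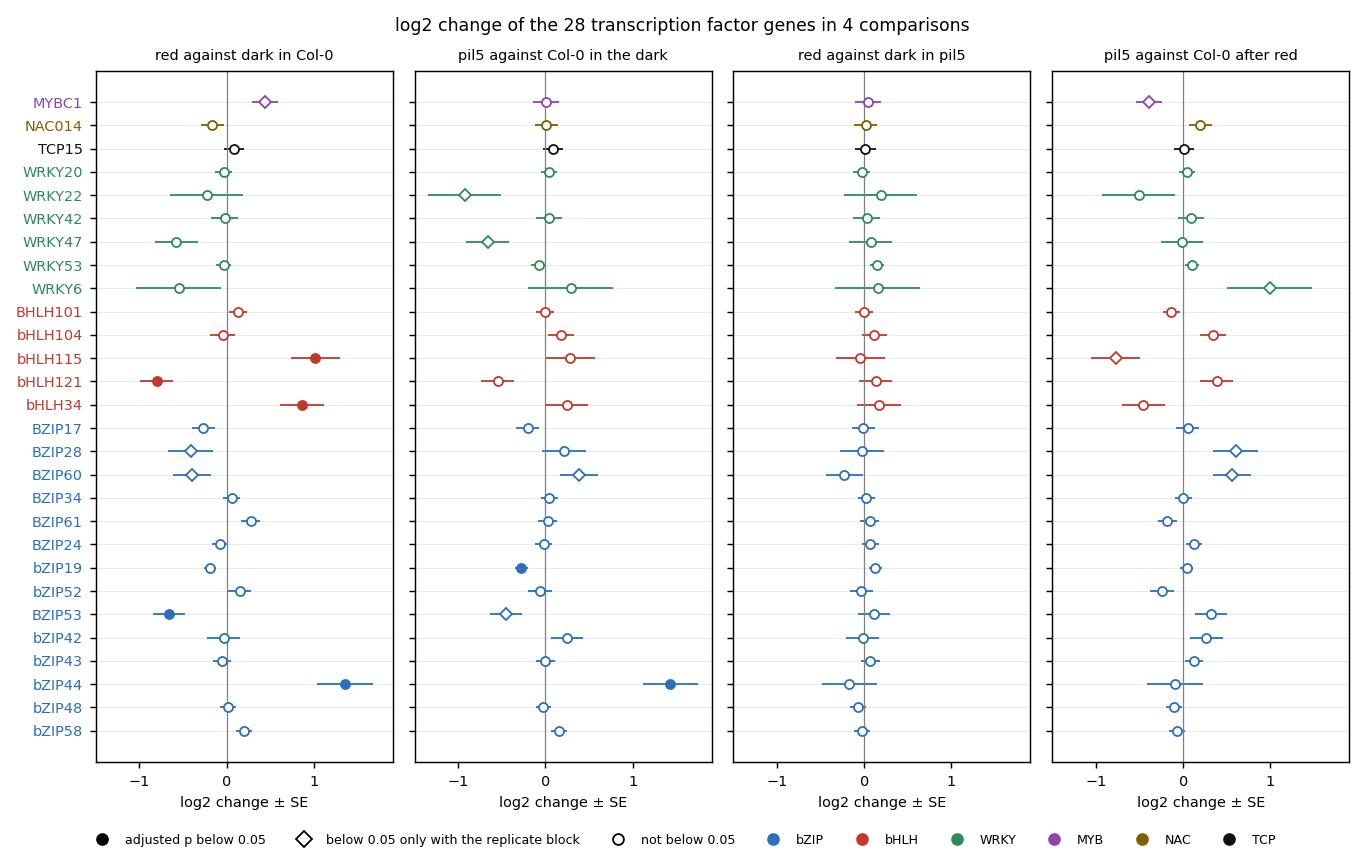
The log2 change (x axis, with its SE) of each of the 28 genes (y axis, coloured by family) in 4 comparisons of 3 against 3 arrays. Filled circles passed limma's test, open diamonds passed only with the block, and open circles passed neither. The values of bZIP44 in the first panel (1.36) and the second (1.43) lie farthest to the right, and all values for red in pil5 lie between -0.23 and 0.19.

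Of the bZIP genes, bZIP44 showed the largest difference among the 28 members, both after red in Col-0 and in pil5 kept dark. In Arabidopsis it is known to act in germination, where it promotes a mannanase gene of the seed. On the Col-0 dark arrays bZIP44 read 8.86, 8.87 and 8.70 in replicate numbers 1, 2 and 3, and on the Col-0 red arrays 10.05, 10.44 and 10.01. On the pil5 dark arrays it read 10.31, 10.49 and 9.95, and on the pil5 red arrays 10.55, 10.52 and 9.15. The 3 Col-0 dark arrays were thus the lowest of the 12, every other array lay above them, and the pil5 red array of number 3 came closest to them. The rise after red in Col-0 was 1.36 on the log2 scale (SE 0.32, n = 3 arrays per group, adjusted p = 0.017), which is 2.56-fold. The difference of pil5 from Col-0 in the dark was 1.43 (SE 0.32, adjusted p = 0.017), or 2.7-fold. Both comparisons use the same 3 Col-0 dark arrays.

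Red light in pil5 gave bZIP44 a log2 change of -0.17 (SE 0.32, adjusted p = 1), with a 95% interval from -0.87 to 0.53. By replicate number it was 0.25, 0.03 and -0.79, so the negative value came from number 3. The red effect in pil5 minus that in Col-0 was -1.53 (SE 0.45, adjusted p = 0.07, and 0.014 with the block). Without the pil5 red array of number 3 this difference was -1.07 (adjusted p = 0.025), and -1.16 with the block (adjusted p = 0.00081). The call for red in Col-0 ended without the Col-0 dark array of number 1 or 2 or the Col-0 red array of number 2, and that for pil5 in the dark without the Col-0 dark array of number 1 or 2 or the pil5 dark array of number 2. In these fits the adjusted p reached at most 0.063 for red and 0.065 for pil5, and over all alternatives the changes stayed between 1.22 and 1.44 for red and between 1.31 and 1.58 for pil5.

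BZIP53, a group S factor known in Arabidopsis to activate seed maturation genes together with other bZIP proteins, went the other way. It read 10.16, 10.61 and 10.34 on the Col-0 dark arrays and 9.61, 9.81 and 9.72 on the Col-0 red arrays. The pil5 dark arrays read 9.82, 10.08 and 9.87, and the pil5 red arrays 9.63, 10.04 and 10.43. The Col-0 dark arrays lay above all Col-0 red and all pil5 dark arrays, while the pil5 red arrays ranged from the level of Col-0 red to that of Col-0 dark. BZIP53 fell by 0.66 on the log2 scale after red in Col-0 (SE 0.18, adjusted p = 0.036). In pil5 in the dark the difference was -0.45 (SE 0.18, adjusted p = 0.16, and 0.044 with the block).

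The red effect on BZIP53 in pil5 was -0.19, -0.03 and 0.56 in numbers 1, 2 and 3, so its mean of 0.11 (SE 0.18, adjusted p = 1) came from number 3. The red effect in pil5 minus that in Col-0 was 0.77 (SE 0.26, adjusted p = 0.11, and 0.028 with the block), and 0.56 with the block and without the pil5 red array of number 3 (adjusted p = 0.0081). The call for red in Col-0 ended without any 1 of Col-0 dark 2 or 3, Col-0 red 1, 2 or 3, or pil5 red 2, with adjusted p up to 0.15 and values between -0.76 and -0.54 over all alternatives.

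The other 4 genes of group S, bZIP42, bZIP43, bZIP48 and bZIP58, lay in the low-signal range described below and were not called with or without the block. Within this group the median change was -0.01 for red in Col-0, with 1 gene called higher and 1 lower of 6. Group S thus had no common direction: its members ran from -0.66 to 1.36.

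Of group F, bZIP19 is a regulator of the response to zinc deficiency, and BZIP24 is known from salt stress. bZIP19 read 8.81, 8.79 and 8.77 in Col-0 dark, against 8.57, 8.58 and 8.64 in Col-0 red, 8.57, 8.47 and 8.49 in pil5 dark, and 8.61, 8.58 and 8.73 in pil5 red. The Col-0 dark arrays were the highest of the 12 and nearly equal among themselves. bZIP19 fell by 0.28 on the log2 scale in pil5 in the dark (SE 0.07, adjusted p = 0.033), a 1.21-fold difference that passed because its arrays varied little. After red in Col-0 its change was -0.19 (SE 0.07, adjusted p = 0.11). The call in pil5 ended without 1 of any Col-0 dark or pil5 dark array or without Col-0 red 1 or 2 (adjusted p up to 0.11), with only the 6 arrays compared, with median centring, and with a variance trend in the fit, while its value stayed between -0.31 and -0.24.

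**Figure D2:**
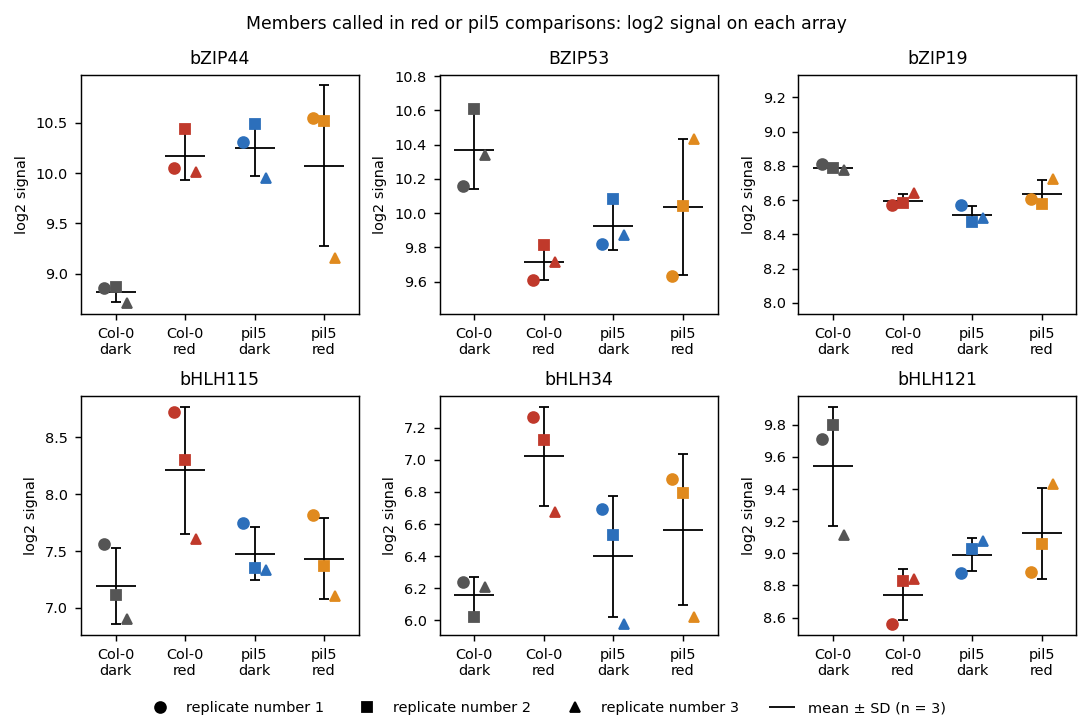
The log2 signal (y axis, a separate range in each panel) of the 6 genes called in a comparison on each of the 12 arrays, by group (x axis). Marker shapes give the replicate number, and bars the mean and SD of 3 arrays. bZIP44 is lowest and BZIP53, bZIP19 and bHLH121 are highest on average there (Col-0 dark), while bHLH115 and bHLH34 have their highest in Col-0 red.

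The ER stress factors BZIP17, BZIP28 and BZIP60 turn on chaperone genes when unfolded proteins build up; the first 2 are held at the ER membrane until then, and BZIP60 is switched by splicing of its RNA. None of them was called in the main fit. With array weights and no block all 3 were called for red in Col-0 (adjusted p from 0.013 to 0.036). BZIP28 and BZIP60 were then also called for pil5 after red (adjusted p = 0.011 and 0.0099). BZIP17 passed for red in Col-0 without Col-0 red 3, at -0.42 (adjusted p = 0.042). BZIP60 read 9.86, 10.15 and 10.35 in Col-0 dark, against 9.38, 9.70 and 10.07 in Col-0 red, 10.15, 10.47 and 10.90 in pil5 dark, and 10.13, 10.33 and 10.37 in pil5 red. All 3 pil5 red arrays lay above all 3 Col-0 red arrays, and in each replicate number Col-0 red was the lowest of the 4 groups. BZIP60 had a log2 change of -0.40 for red in Col-0 (SE 0.22, adjusted p = 0.29, and 0.016 with the block), 0.39 for pil5 in the dark (SE 0.22, adjusted p = 0.32, and 0.021 with the block) and 0.56 for pil5 after red (SE 0.22, adjusted p = 0.34, and 0.011 with the block). With the block and without the pil5 red array of number 3, the last of these was 0.67 (adjusted p = 0.0014).

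BZIP28 read 9.69, 9.69 and 10.04 in Col-0 dark, against 9.17, 9.10 and 9.91 in Col-0 red, 9.80, 9.96 and 10.30 in pil5 dark, and 9.67, 9.84 and 10.46 in pil5 red. The array of number 3 was the highest in each group, which widens the groups and makes them overlap. Its change was -0.41 for red in Col-0 (SE 0.25, adjusted p = 0.36, and 0.018 with the block) and 0.60 for pil5 after red (SE 0.25, adjusted p = 0.38, and 0.011 with the block), the latter being 0.54 with the block and without the pil5 red array of number 3 (adjusted p = 0.016). BZIP17 changed by -0.27 for red in Col-0 (SE 0.13, adjusted p = 0.24, and 0.06 with the block). The mean level of the 3 genes was 9.73 ± 0.16 in Col-0 dark, 9.37 ± 0.34 in Col-0 red, 9.86 ± 0.27 in pil5 dark and 9.77 ± 0.20 in pil5 red (SD over n = 3 arrays). Their median change was -0.40 after red in Col-0 and 0.56 between pil5 and Col-0 after red, where the medians over all probe sets were 0.00029 and 0.0033. Neither BZIP60 nor BZIP28 was called for the interaction of genotype and red, also with the block (adjusted p = 0.48 and 0.12).

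The 5 bHLH genes all belong to the iron response known in Arabidopsis. bHLH34, bHLH104 and bHLH115 are related proteins that pair with each other and switch on genes of iron uptake, bHLH121 is a partner that they need, and BHLH101 is one of the factors whose genes lie downstream of them. Their changes after red in Col-0 differed in direction, and bHLH115 rose most. It read 7.56, 7.11 and 6.90 in Col-0 dark, against 8.72, 8.30 and 7.61 in Col-0 red, 7.74, 7.35 and 7.34 in pil5 dark, and 7.82, 7.37 and 7.11 in pil5 red. The Col-0 red arrays lay above the Col-0 dark arrays, and in each replicate number Col-0 red was the highest of the 4 groups. The rise in Col-0 was 1.02 (SE 0.28, adjusted p = 0.035), or 2.02-fold, and it was 1.16, 1.19 and 0.71 by replicate number.

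bHLH115 did not show this difference in pil5 in the dark, where its change was 0.29 (SE 0.28, adjusted p = 0.63), or after red in pil5, where it was -0.05 (SE 0.28, adjusted p = 1) with a 95% interval from -0.67 to 0.58. After red, pil5 differed from Col-0 by -0.78 (SE 0.28, adjusted p = 0.3, and 0.0072 with the block), and by -0.79 with the block and without the pil5 red array of number 3 (adjusted p = 0.0067). The red effect in pil5 minus that in Col-0 was -1.06 (SE 0.40, adjusted p = 0.15, and 0.0065 with the block), and -1.075 with the block and without the pil5 red array of number 3 (adjusted p = 0.0035).

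bHLH34 read 6.24, 6.02 and 6.21 on the Col-0 dark arrays and 7.27, 7.12 and 6.68 on the Col-0 red arrays, with no overlap. In pil5 dark it read 6.69, 6.53 and 5.98, and in pil5 red 6.88, 6.79 and 6.02, so in both pil5 groups numbers 1 and 2 lay above all Col-0 dark arrays, and number 3 lay at or below the lowest of them. It rose by 0.87 after red in Col-0 (SE 0.25, adjusted p = 0.041), or 1.82-fold, and had 0.17 after red in pil5 (SE 0.25, adjusted p = 1). The difference between these effects was -0.70 (SE 0.36, adjusted p = 0.3, and 0.059 with the block). With array weights and no block it passed, at -0.78 (adjusted p = 0.01).

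bHLH121, the partner of these factors, read 9.71, 9.80 and 9.11 in Col-0 dark, against 8.56, 8.83 and 8.84 in Col-0 red, 8.88, 9.02 and 9.08 in pil5 dark, and 8.88, 9.06 and 9.43 in pil5 red. Col-0 dark lay above Col-0 red and pil5 dark without overlap, but in number 3 the pil5 dark array differed from it by only -0.04. bHLH121 fell by 0.80 after red in Col-0 (SE 0.19, adjusted p = 0.017), with differences of -1.16, -0.97 and -0.28 in numbers 1, 2 and 3. In pil5 in the dark its change was -0.55 (SE 0.19, adjusted p = 0.09, and 0.062 with the block). That change passed with array weights, at -0.71 (adjusted p = 0.00093), and without Col-0 dark 3, at -0.76 (adjusted p = 0.014). It also passed without pil5 red 3 (adjusted p = 0.049, and 0.016 with the block). After red in pil5 the change of bHLH121 was 0.13 (SE 0.19, adjusted p = 1). The red effect in pil5 minus that in Col-0 was 0.93 (SE 0.27, adjusted p = 0.065, and 0.039 with the block). With the block and without the pil5 red array of number 3 it was 0.74 (adjusted p = 0.05, under the threshold before rounding).

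The other 2 bHLH genes were not called in any comparison. bHLH104 read between 9.07 and 9.86 over the 12 arrays, with changes from -0.05 to 0.34 over the 4 comparisons, and BHLH101 lay in the low-signal range. The call of bHLH115 ended without any 1 of Col-0 dark 2 or 3, Col-0 red 1 or 2, pil5 dark 2 or pil5 red 2, and with only the 6 arrays compared. That of bHLH34 ended without the same arrays or Col-0 dark 1, and that of bHLH121 without Col-0 dark 1 or 2 or Col-0 red 1. The adjusted p in these fits reached 0.14, 0.15 and 0.082.

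The WRKY family had 0 of 6 genes called in any comparison of the main fit. All 6 had a negative log2 change for red in Col-0, with a median of -0.13 and a range from -0.58 to -0.02, as had 17 of the 28 members. The changes of WRKY20, WRKY42 and WRKY53 lay between -0.03 and -0.02. These values, and that of WRKY22 (-0.23), were smaller than their SE, so the shared sign says little. WRKY42 and WRKY53 also lay in the low-signal range. WRKY47 read 5.79, 5.65 and 4.86 in Col-0 dark, against 5.19, 4.84 and 4.54 in Col-0 red, 5.03, 4.47 and 4.80 in pil5 dark, and 4.88, 4.75 and 4.89 in pil5 red. The Col-0 dark arrays of numbers 1 and 2 were the highest of the 12, and that of number 3 lay among the other groups. Its change was -0.67 for pil5 in the dark (SE 0.24, adjusted p = 0.11, and 0.032 with the block) and -0.58 for red in Col-0 (SE 0.24, adjusted p = 0.16, and 0.052 with the block). Without Col-0 dark 3 both passed, at -0.95 (adjusted p = 0.014) and -0.86 (adjusted p = 0.018).

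WRKY22, known from immune signalling and leaf senescence, read 7.33, 7.26 and 6.65 in Col-0 dark, against 7.12, 6.82 and 6.61 in Col-0 red, 6.68, 6.71 and 5.06 in pil5 dark, and 6.70, 6.56 and 5.74 in pil5 red. In every replicate number the pil5 dark array read below the Col-0 dark array, with differences of -0.66, -0.55 and -1.58. The change of WRKY22 for pil5 in the dark was -0.93 (SE 0.42, adjusted p = 0.2, and 0.013 with the block). WRKY6, a factor of senescence and phosphate supply, read 6.26, 6.77 and 8.22 in Col-0 dark, against 6.04, 6.23 and 7.33 in Col-0 red, 7.10, 7.19 and 7.82 in pil5 dark, and 7.20, 7.35 and 8.03 in pil5 red. The array of number 3 was again the highest in every group, and within each number pil5 red lay above Col-0 red. WRKY6 differed by 0.99 between pil5 and Col-0 after red (SE 0.49, adjusted p = 0.46, and 0.017 with the block), and by 1.14 with the block and without the pil5 red array of number 3 (adjusted p = 0.0063). WRKY20 stayed between 8.08 and 8.41 on the 12 arrays.

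**Figure D3:**
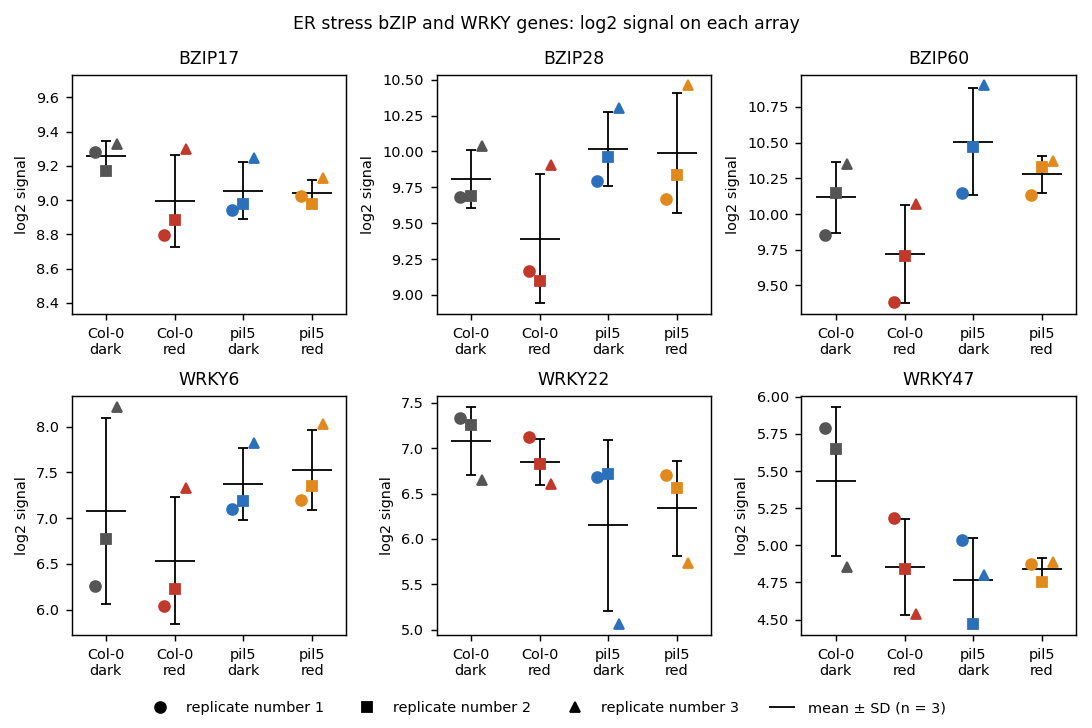
The log2 signal (y axis, a separate range in each panel) of the ER stress genes BZIP17, BZIP28 and BZIP60 and of WRKY6, WRKY22 and WRKY47 on each of the 12 arrays, by group (x axis). Marker shapes give the replicate number, and bars the mean and SD of 3 arrays. The number 3 arrays (triangles) of BZIP28 and WRKY6 are the highest in every group, and those of WRKY22 the lowest.

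MYBC1, a MYB-related factor known to lower freezing tolerance, read 4.53, 4.65 and 4.41 on the Col-0 dark arrays and 5.21, 4.92 and 4.77 on the Col-0 red arrays, without overlap. In pil5 it read 4.72, 4.45 and 4.44 in the dark and 4.83, 4.52 and 4.38 after red, which overlapped with Col-0 dark. Its change for red in Col-0 was 0.44 (SE 0.15, adjusted p = 0.077, and 0.009 with the block), and for pil5 after red -0.39 (SE 0.15, adjusted p = 0.32, and 0.038 with the block). The latter call ended when the pil5 red array of number 3 was left out of the fit with the block, at -0.36 (adjusted p = 0.067). In RefSeq's gene order MYBC1 (AT2G40970) and BZIP17 (AT2G40950) have 2 genes between them, and their changes for red in Col-0 had opposite signs, 0.44 and -0.27. NAC014, a NAC factor, read between 9.36 and 9.88 on the 12 arrays and was not called in any comparison, also with the block.

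A low-signal range was set after the values were seen, as genes below the lower quartile of the array (4.20 to 4.36) on at least 8 of 12 arrays. It held 12 of the 28 members: TCP15, WRKY42, WRKY53, BHLH101, BZIP24, BZIP34, BZIP61, bZIP42, bZIP43, bZIP48, bZIP52 and bZIP58. TCP15 is a factor of cell growth that is known to act downstream of gibberellin in germination, and WRKY53 is a regulator of leaf senescence. The group means of the 12 genes lay between 3.43 and 4.30 and their log2 changes in the main fit, the interaction included, between -0.25 and 0.28. In the fits with and without the block 0 of them were called, with a smallest adjusted p of 0.073 and 0.13. Array weights did give calls: BZIP61 for red in Col-0, at 0.33 (adjusted p = 0.014), and bZIP58 for pil5 in the dark, at 0.22 (adjusted p = 0.031). At such signals a change could hardly be seen, so these values do not show that the genes did not respond. The 0 calls with and without the block in the family of TCP15, and in part of the bZIP and WRKY families, concern genes at this level.

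The red effect could be set side by side in both genotypes, since these comparisons share no array. In 23 of the 28 genes the log2 change after red was larger in size in Col-0 than in pil5, as it was in 69.4% of all probe sets. The median size of the change was 0.197 in Col-0 and 0.066 in pil5 over the 28 genes, and 0.154 and 0.0823 over all probe sets, so the array as a whole had a smaller red effect in pil5 too. In the interaction of genotype and red, limma called 0 of 28 members (5 at an unadjusted p below 0.05), against 6.34% of all probe sets (21.2% unadjusted). With the block 4 were called, bZIP44, BZIP53, bHLH115 and bHLH121, against 17.5% of all probe sets.

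**Figure D4:**
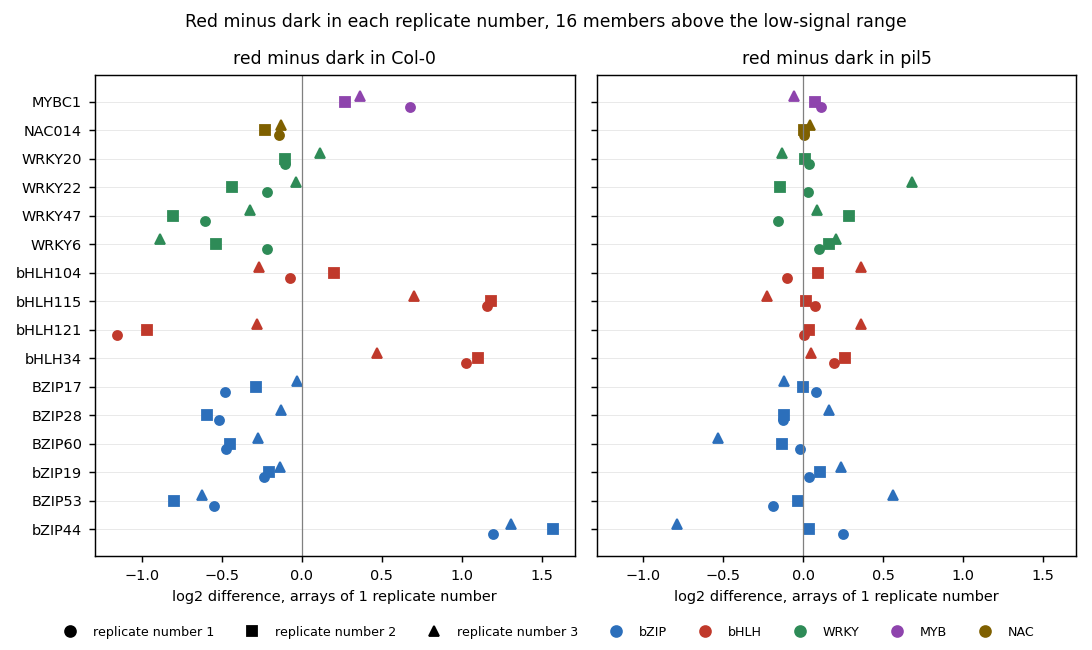
Red minus dark on the log2 scale (x axis) for the 16 genes above the low-signal range (y axis, coloured by family), in Col-0 (left) and pil5 (right). Each marker is the difference between the arrays of 1 replicate number. In Col-0 the values of bZIP44 lie between 1.19 and 1.57, and in pil5 the markers far from 0, such as -0.79 for bZIP44 and 0.68 for WRKY22, belong to number 3 (triangles).

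For the families with several members, the mean level over the members was taken on each array. The bHLH mean was 7.23 ± 0.09 in Col-0 dark, 7.46 ± 0.14 in Col-0 red, 7.26 ± 0.06 in pil5 dark and 7.33 ± 0.04 in pil5 red (SD over n = 3 arrays). The WRKY mean was 5.99 ± 0.04, 5.75 ± 0.09, 5.77 ± 0.05 and 5.87 ± 0.03 in the same order, so Col-0 dark was the highest and did not overlap with the other groups. No single WRKY gene separated Col-0 dark from Col-0 red or from pil5 dark. In pil5 in the dark 3 of the 6 genes had a positive change and 3 a negative one. The bZIP mean was 6.27 ± 0.05, 6.27 ± 0.09, 6.38 ± 0.05 and 6.37 ± 0.05. The median log2 change of all 28 genes was -0.03 after red in Col-0 and 0.02 in pil5 kept dark, against 0.00029 and 0.012 over all probe sets. These family values are descriptions of listed genes and carry no test.

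Counts of called members depended on the block and on single arrays. With the block, 8 members were called for red in Col-0, 6 in pil5 kept dark, 0 for red in pil5 and 5 when pil5 was set against Col-0 after red, against 26.4%, 23.8%, 0% and 8.27% of all probe sets. The groups did not overlap for 9 members in red against dark in Col-0, against 33.3% of all probe sets, and for 5 in pil5 in the dark, against 29.5%. In place of the 5 members called for red in Col-0, limma called 2 without Col-0 dark 1 or pil5 red 2, 1 without Col-0 red 1 or 2, and 0 when Col-0 dark 2 was left out. Without Col-0 dark 3 or pil5 dark 2 the count was 3. In pil5 in the dark the count of 2 became 0 without Col-0 dark 1 or 2 or pil5 dark 2, and 1 without Col-0 red 1 or 2 or pil5 dark 1 or 3. In the interaction the count of 0 became 1 without Col-0 dark 3 or pil5 red 3, and 3 without pil5 red 1.

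Regulators of seeds and light that carry other symbols were listed for comparison, and 10 of the 102 entries could be matched to a probe set of 1 gene. For red in Col-0, 2 rose and 3 fell: SPT and ALC, related bHLH factors of germination and fruit opening, and EEL, AGL67 and EIN3. Of all probe sets 15.1% were called in this comparison. The list was chosen with earlier results of these data known, so its share of calls is a description only. ALC read 5.87 ± 0.22 in Col-0 dark against 6.91 ± 0.17 in Col-0 red (SD, n = 3), a rise of 1.04 (SE 0.16, adjusted p = 0.0029), and it read 5.67 ± 0.19 in pil5 dark and 5.76 ± 0.25 in pil5 red. In the main fit ALC was the only one of the 10 called for pil5 after red, against 0.193% of all probe sets. It fell there by 1.15 (SE 0.16, adjusted p = 0.029, and 0.0011 with the block). That call ended with only the 6 arrays compared and without any 1 of pil5 red 2 or 3, pil5 dark 2, Col-0 red 1 or 2, and Col-0 dark 1 (adjusted p up to 0.17, and 0.052 at -1.005 without pil5 red 3), while its value stayed between -1.24 and -1.005 over all alternatives. Like bHLH115, ALC thus had its highest group mean in Col-0 red, with means in the pil5 groups near that of Col-0 dark. EEL, a bZIP factor of the response to abscisic acid, fell by 1.72 after red in Col-0 (adjusted p = 0.041, and up to 0.14 without single arrays) and had a change of -2.37 in pil5 kept dark (adjusted p = 0.014, and up to 0.065). In pil5 in the dark 0 of the 10 rose and 3 fell, EEL, AGL67 and EIN3, against 12.1% of all probe sets. For red in pil5 0 passed, against 0% of all probe sets. The 5 calls for red in Col-0 became 3 without Col-0 dark 1 or Col-0 red 3, and 2 without Col-0 red 1 or 2 or Col-0 dark 2. The 3 in pil5 kept dark became 1 without pil5 dark 3 or without number 1 or 2 of Col-0 dark. HYH, HAT2, AGL18, PHV and tny were not called in any comparison without the block.

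With the block, 3 of the 10 were called for pil5 after red, against 8.27% of all probe sets. Beside ALC these were SPT at -0.83 (adjusted p = 0.28, and 0.014 with the block) and HYH, a bZIP factor of the light response, at 0.79 (adjusted p = 0.55, and 0.039 with the block). HYH was also called with the block in pil5 kept dark, at 0.86 (adjusted p = 0.32, and 0.012 with the block). With the block and without the pil5 red array of number 3, the values after red were -1.03 for ALC (adjusted p = 0.00073), -0.78 for SPT (adjusted p = 0.019) and 0.93 for HYH (adjusted p = 0.017), and AGL67 was called too, at -0.88 (adjusted p = 0.027).

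The interaction of genotype and red was called in 2 of the 10 in the main fit, in opposite directions, against 6.34% of all probe sets. EIN3, a factor of the ethylene response, had a red effect in pil5 above that in Col-0 by 0.93 (SE 0.17, adjusted p = 0.02). For ALC the difference was -0.95 (SE 0.23, adjusted p = 0.037). The call of EIN3 ended when Col-0 dark 1 or 2 was left out, or the arrays of number 1 of Col-0 red or pil5 dark (adjusted p up to 0.066), and that of ALC without any 1 array other than Col-0 dark 3 or pil5 red 1 (adjusted p up to 0.1). Without pil5 red 3 the values were 0.83 for EIN3 (adjusted p = 0.021) and -0.81 for ALC (adjusted p = 0.053). In that fit, which had no block, EEL at 1.88 (adjusted p = 0.037) and AGL67 at 1.90 (adjusted p = 0.034) were called too. With the block 5 were called, against 17.5% of all probe sets. They were EIN3 and ALC (adjusted p = 0.0094 and 0.0088), SPT at -1.24 (adjusted p = 0.0083), EEL at 2.54 (adjusted p = 0.042) and AGL67 at 2.56 (adjusted p = 0.026). With the block and without the pil5 red array of number 3, EEL had 1.67 (adjusted p = 0.0024) and AGL67 1.82 (adjusted p = 0.0018), both smaller than with it, and SPT had -1.19 (adjusted p = 0.006).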

How the data were processed

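The authors deposited log2 signals of 22810 probe sets on 12 Affymetrix arrays; per the labels' protocols, total RNA was turned into biotinylated cRNA for them. The deposited log2 values were already normalized across arrays, as their nearly equal quartiles show. MAS5 5.0 and RMA are named in the submitters' processing notes, with no role for either. After 64 control probe sets were set aside, 22746 were fitted with limma 3.58.1 under R 4.3.3, as a mean for each group, eBayes without trend, no further scaling and no filter. The platform annotation gave the genes of the probe sets (13513 to 1 gene, 503 to several, 8730 to none), and all 28 members were matched to RefSeq. Values of single arrays and families are descriptions.

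The members, the list of other regulators and the grouping by role were chosen with earlier results of these data known. The text names every called member, the brightest of each family, each member of a family of 3 or fewer, and the called genes of the other list. WRKY47, WRKY22, WRKY6, BZIP17, BZIP28 and the low-signal genes were named after their values were seen.

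Deviations from the group means correlated at r from 0.17 to 0.71 between arrays of the same replicate number in different groups and from -0.68 to 0.41 between other arrays, and 11 of 12 arrays correlated best with 1 of their own number. The pairing comes from this check, since no label states what the number shares. P-values of the main fit count the deviation shared by a number as part of the spread between these samples. Those of the fit with the block take it out of that spread. The number of arrays limits the precision. The fit was tested on simulated data whose arrays varied independently. That test does not cover arrays that deviate together or an array that stands apart. A promoter motif search was not run, as no sequence was at hand. Plots were made in matplotlib 3.10.9 under Python 3.11.15.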

Additional observations from a re-analysis of the deposited data

Results flagged for a closer look

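The red effect differed between pil5 and Col-0 in 4 genes by limma's interaction term, when the replicate number was in the fit as a block. The effect in pil5 minus that in Col-0 was -1.53 for bZIP44 (adjusted p = 0.014), -1.06 for bHLH115 (adjusted p = 0.0065), 0.93 for bHLH121 (adjusted p = 0.039) and 0.77 for BZIP53 (adjusted p = 0.028). In the main fit none of the 4 passed (adjusted p from 0.065 to 0.15). Some other fits without the block did call them: all 4 passed with array weights (adjusted p from 0.0015 to 0.027), and bZIP44 passed without pil5 red 3 (adjusted p = 0.025). Array weights also gave a called difference for bHLH34, at -0.78 (adjusted p = 0.01), and for WRKY47, at 0.83 (adjusted p = 0.031). Neither passed in the main fit or with the block. In 3 further genes the red effect had one sign in all 3 replicate numbers of Col-0 and the opposite sign in all 3 of pil5. None of them was called in the main fit or with the block. These differences were 0.18 for NAC014, 0.70 for WRKY6 and 0.32 for bZIP19. With array weights that of bZIP19 passed, at 0.30 (adjusted p = 0.017). bHLH121 also had opposite signs in every number. The share of all probe sets with this pattern was not counted, so it is not read as a trait of these genes. With the block and without the pil5 red array of number 3, which stood apart, the first 4 genes were called again, with the values given above. In the same fit the differences were 0.06 for NAC014 (adjusted p = 0.87), 0.85 for WRKY6 (adjusted p = 0.053) and 0.27 for bZIP19 (adjusted p = 0.11). In numbers 1 and 2 alone the red effect of NAC014 in pil5 was 0.0067 and 0.0038, so its sign there rests on values close to 0.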

How the results depend on the processing

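The number of called members was 5 for red in Col-0, 2 in pil5 kept dark, 0 in pil5 against Col-0 after red and 0 for the interaction. It became 8, 6, 5 and 4 in the fit with the replicate block, and 12, 8, 5 and 7 with array weights. With the block and without the pil5 red array of number 3, an alternative chosen after the data were seen, it was 11, 7, 4 and 4. Of all probe sets, 15.1%, 12.1%, 0.193% and 6.34% were called in the main fit, and 26.4%, 23.8%, 8.27% and 17.5% with the block. For the other fits this share was not counted, so the higher counts are not read as a result about the members. A minimum 2-fold change left 2 for red in Col-0 and 1 in pil5 kept dark. The latter count was also 1 with only the 6 arrays compared, with median centring and with a trended, robust eBayes. Leaving out the dimmest 50% of probe sets gave 2 for the interaction. Leaving out each array in turn gave between 0 and 5 for red in Col-0, 0 and 3 in pil5 kept dark, and 0 and 3 for the interaction. The cause of these shifts was not tested, except that a fold minimum removes calls by construction. Red in pil5 had 0 called members in every fit (0 at an unadjusted p below 0.05 in the unblocked fit). No called change turned its sign. Of 133 uncalled changes, 66 had the other sign in at least 1 alternative. Family levels moved by less than 1 SD under quantile normalization. They also did so without the pil5 red array of number 3, but that outcome was fixed in advance. Leaving out 1 of 3 arrays cannot move their mean by 1 SD of the same 3 arrays, so this setting could not show a shift.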
